A study of Parasteatoda tepidariorum with 75 samples.

Results

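The response of early embryos of the house spider Parasteatoda tepidariorum to loss of Hedgehog ligand transcripts was measured by RNA-seq in 6 early stage 3 libraries, of 75 samples in the series. The members are the 4 libraries labelled Pt-hh pRNAi and the 2 untreated libraries of the same Pt-hh females, and the response is described across every gene model that could be tested. Each library was made from poly(A) RNA of pooled whole sibling embryos of the Osaka isolate, all laid by a single female. Pt-hh female 1 gave pRNAi egg sacs 16 and 20 days after the first injection of Pt-hh dsRNA and Pt-hh female 2 gave them 18 and 22 days after it. The untreated egg sacs were laid 2 days before the first injection, with no dsRNA given. For comparison, gfp females 1 to 3, injected with dsRNA of the jellyfish gene for green fluorescent protein, which the spider lacks, gave 6 gfp pRNAi and 3 untreated libraries of the same stage. The 3 Pt-ptc females gave a further 6 Pt-ptc pRNAi and 3 untreated libraries of that stage. In all 3 experiments the pRNAi embryos came from later egg sacs of the female than the untreated ones, so dsRNA and egg sac order cannot be told apart within an experiment. Only 2 Pt-hh females were used, and p-values rest on the spread among their egg sacs.

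Hedgehog is a secreted signalling protein. It binds the receptor Patched, which otherwise holds back the membrane protein Smoothened. Once Smoothened is released, the zinc finger transcription factor Ci, the counterpart of vertebrate Gli, changes from a repressor into an activator of target genes. Genes for Patched itself are targets of the pathway in flies and vertebrates, where Patched limits the spread of the signal. In the spider the pathway patterns the main body axis of the germ disc, an epithelial sheet on one side of the egg. In parental RNAi (pRNAi) the mother is injected and her offspring carry the knockdown. The comparison of Pt-hh pRNAi with untreated embryos asks which transcripts differ when the ligand transcript is low, at a stage well before the late stage 5 germ disc.

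Total counts on gene models in the 6 libraries were between 5961730 and 9738213. Across gene models, log2 levels correlated at 0.978 to 0.992 between libraries of the same female and at 0.954 to 0.968 between libraries of different females, whichever the treatment. Between the 2 females, 1215 gene models (9.19% of 13221) differed. In the Pt-hh females, 7 undescribed gene models took 9.96% to 20.2% of all counts in pRNAi libraries and 15.7% and 19.6% in untreated ones, against 0.243% to 1.1% in gfp pRNAi libraries and 1.06% to 1.61% in untreated libraries of gfp females. None of the 7 was called for Pt-hh pRNAi, and with them left out, a choice made after seeing the data, the same 45 gene models were called among 47. Embryo pools hold all cells of the embryo, so fewer cells of a type and less RNA per cell cannot be told apart.

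Transcripts of Pt-hh (gene model g4322, scaffold 547, 237576 to 301138, plus strand, assembly Ptep_1.0), the targeted ligand gene, were lower in every Pt-hh pRNAi library than in either untreated library. Their level, in CPM (counts scaled to a common library size), was 5.43 and 6.15 CPM in the pRNAi egg sacs of female 1 and 3.54 and 1.35 CPM in those of female 2, against 21.8 CPM in the untreated egg sac of female 1 and 10.9 CPM in that of female 2. The groups did not overlap. Pt-hh fell by 2.04 on the log2 scale, a 4.11-fold difference (SE 0.28, adjusted p = 0.0026). By female the log2 change was -1.90 in female 1 and -2.23 in female 2. Per transcript length the mean level was 1.74 RPKM in Pt-hh pRNAi and 6.23 RPKM in untreated embryos, where 50.2% of the tested gene models lay below it. The call was lost without the day 22 egg sac of female 2 (adjusted p = 0.011), without the untreated egg sac of female 1 (adjusted p = 0.0241) and without a term for the female (adjusted p = 0.555), with the log2 change between -1.82 and -2.23 in these fits. Adjusted p-values here and below are Benjamini-Hochberg values of edgeR's quasi-likelihood F test over all gene models tested, and a gene model is called when its value is under 0.01.

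After Pt-hh pRNAi 45 of 13221 gene models (0.34%) were called at early stage 3. Higher levels were called for 14 (0.106%) and lower levels for 31 (0.234%). At an adjusted p under 0.05 there were 156 (1.18%). Size of change ranged between 0.78 and 1.77 on the log2 scale for the higher ones, and between 0.73 and 3.13 for the lower ones. Levels per length in untreated embryos had a median of 13.2 RPKM among the 14 higher, 6.23 RPKM among the 31 lower and 6.16 RPKM among the gene models not called, and 23 of the 31 lower were under 10 RPKM there. All 45 changed the same way in both females and separated pRNAi from untreated within each female. Of all tested gene models 54.4% separated them within each female, counting also those that changed in opposite directions in the 2 females. Over all 6 libraries pooled the treatments did not overlap for 34 of the 45, against 16.9% of all tested gene models. The count moved with the egg sacs: it was 10 without the day 22 egg sac and 20 without the day 18 egg sac of female 2, 17 without the day 20 and 265 without the day 16 egg sac of female 1, 11 without the untreated egg sac of female 1, 96 without that of female 2, 333 without female 1 and 146 without female 2. Without a term for the female, 0 gene models were called, and 921 had an unadjusted p under 0.05.

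**Figure D1:**
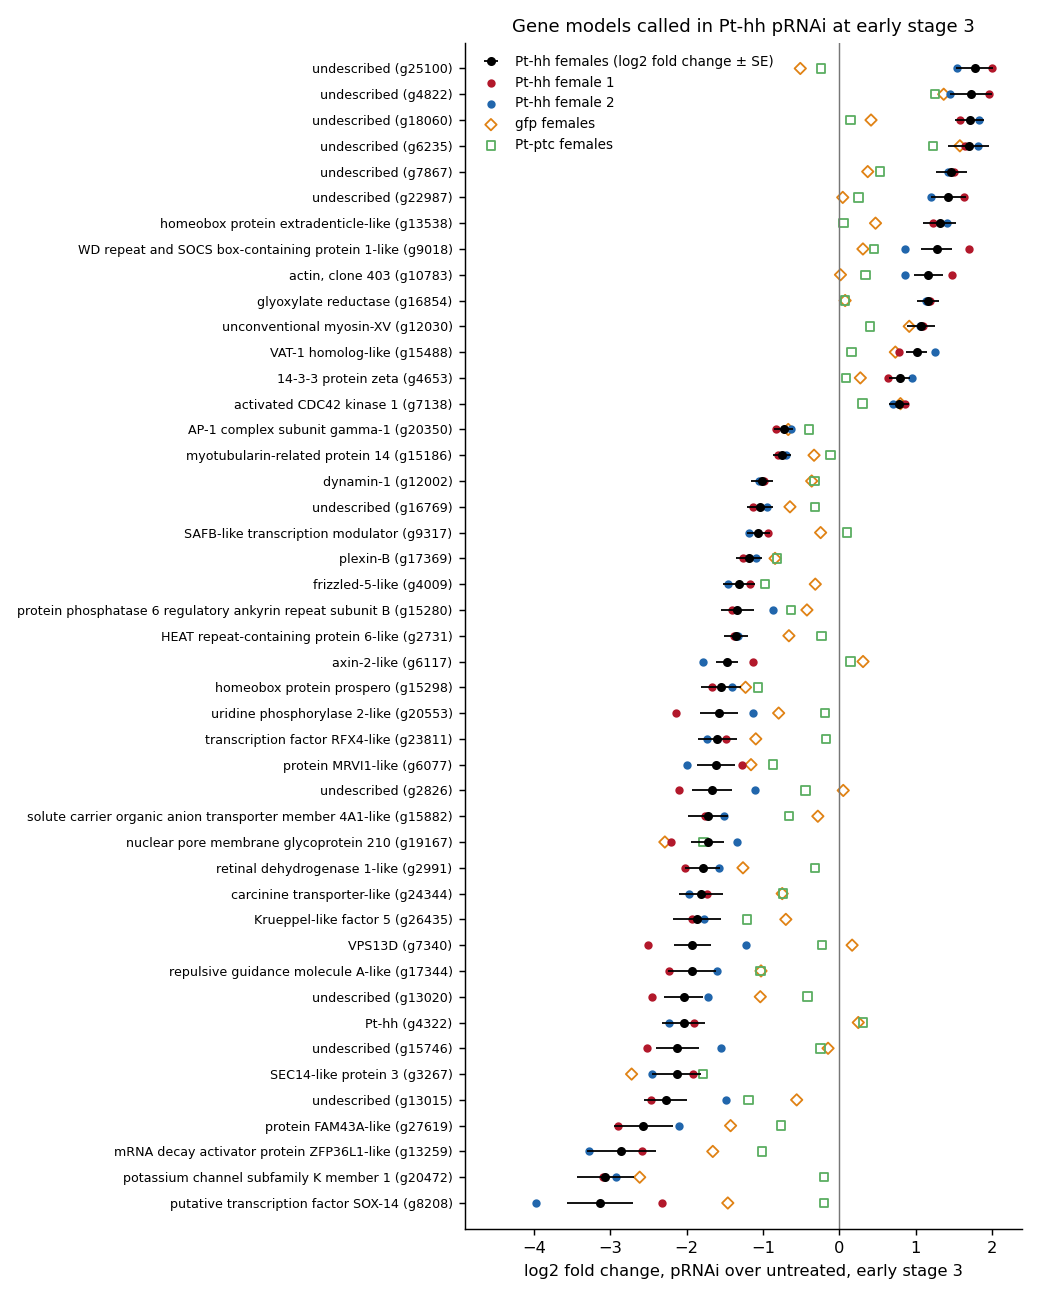
Log2 fold change of pRNAi over untreated embryos at early stage 3 for the 45 gene models called in Pt-hh pRNAi, as the fitted value with its SE (black) and within each Pt-hh female (red and blue), beside the value in gfp females (diamonds) and Pt-ptc females (squares). Both females lie on the same side of 0 in every row, while the gfp values of Pt-hh, axin-2-like, VPS13D, g25100 and g2826 lie on the other side.

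Among signalling genes the lower levels were those of an axin, a frizzled and guidance molecules. Axin-2-like (g6117, scaffold 727, 12126 to 65510, plus strand) matched fly Axin and human AXIN2, scaffold proteins of the complex that marks beta-catenin for destruction and thereby limits Wnt signalling. Its transcripts were at 138 and 130 CPM in the pRNAi egg sacs of female 1 and 87.8 and 85.7 CPM in those of female 2, against 294 and 299 CPM in the untreated egg sacs. The pRNAi libraries kept close together within each female, and the untreated libraries were nearly alike. Axin-2-like fell by 1.47 on the log2 scale (SE 0.15) and had the smallest adjusted p of all gene models, 0.000691. Along with the undescribed g18060, it was called without any 1 of the 6 libraries.

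Frizzled-5-like (g4009), a receptor for Wnt ligands that matched fly Frizzled-2, was at 11.3, 18.3, 10.9 and 12.5 CPM in pRNAi and 33.6 and 32.2 CPM in untreated libraries. It fell by 1.31 on the log2 scale (SE 0.21, adjusted p = 0.00623). Repulsive guidance molecule A-like (g17344), a membrane-anchored co-receptor for BMPs in vertebrates, fell by 1.93 (SE 0.32, adjusted p = 0.00674), with 3.26, 1.61, 2.31 and 3.43 CPM in pRNAi against 11.1 and 8.94 CPM in untreated embryos. Plexin-B (g17369), a semaphorin receptor, fell by 1.18 (SE 0.17, adjusted p = 0.00355). Its pRNAi libraries were at 25.7 and 24.8 CPM in female 1 and 11.4 and 12 CPM in female 2, against 60.6 and 24.9 CPM in the untreated ones. For plexin-B the treatments separated only within a female, since the untreated egg sac of female 2 was at the level of the pRNAi egg sacs of female 1. A second gene model carries the same identifier as g17344, so reads of that gene may be divided.

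Transcription factors and RNA regulators made up a further part of the lower gene models. SOX-14 (g8208), an HMG-box factor and the called model with the largest fall, had 0.543, 0.851, 0.616 and 0.416 CPM in pRNAi and 3.65 and 8.05 CPM in untreated libraries. It fell by 3.13 (SE 0.44, adjusted p = 0.00261). The mRNA decay activator ZFP36L1-like (g13259), whose relatives bind AU-rich elements and hasten mRNA turnover, fell by 2.86 (SE 0.45, adjusted p = 0.00623), with 1.22, 0.473, 0.462 and 0.312 CPM in pRNAi and 4.87 and 3.75 CPM in untreated embryos. Both genes were thus near the bottom of the measured range after pRNAi and low in untreated embryos.

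Krueppel-like factor 5 (g26435), a zinc finger factor, fell by 1.86 (SE 0.31), with 1.54 to 2.49 CPM in pRNAi against 6.82 and 7.15 CPM in untreated libraries. The homeobox factor prospero (g15298), a regulator of neural cell fate in the fly, fell by 1.55 (SE 0.26). Its pRNAi libraries spread from 9.51 to 25.4 CPM, against 56.5 and 37.5 CPM in the untreated ones. RFX4-like (g23811), a winged-helix factor of the RFX family, fell by 1.60, with 4.64 to 9.1 CPM in pRNAi and 18.8 and 19 CPM in untreated embryos. The SAFB-like transcription modulator (g9317), named after a family of nuclear RNA-binding proteins, was far more abundant: 359, 360, 278 and 178 CPM in pRNAi and 683 and 519 CPM in untreated libraries. It fell by 1.06 (SE 0.15, adjusted p = 0.00389).

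Membrane traffic genes were represented by 4 lower and 0 higher of 260 tested, a share of 1.54% lower against 0.234% of all tested gene models, while their median log2 change was 0.12 against 0.02 over all. The list as a whole leaned the other way, with 33 higher and 14 lower at an unadjusted p under 0.05. Over all tested gene models 6.94% were higher and 8.2% lower at that level. VPS13D (g7340, scaffold 24, 602114 to 663996, plus strand), one of a family of large proteins that move lipids between organelles, was at 36.1 and 60.3 CPM in pRNAi egg sacs of female 1 and 45.6 and 42.2 CPM in those of female 2, against 276 CPM in the untreated egg sac of female 1 and 103 CPM in that of female 2. The pRNAi levels were close to each other, and the untreated levels were not. VPS13D fell by 1.93 (SE 0.24, adjusted p = 0.00128). Dynamin-1 (g12002), the GTPase that pinches off endocytic vesicles, fell by 1.01, with 87.8 and 81.1 CPM in pRNAi against 167 CPM untreated in female 1, and 25.9 and 30.9 CPM in pRNAi against 58.8 CPM untreated in female 2. SEC14-like protein 3 (g3267), from a family of lipid transfer proteins, fell by 2.13, with 0.831 to 2.45 CPM in pRNAi and 9.13 and 5.54 CPM in untreated embryos. The AP-1 complex subunit gamma-1 (g20350), part of a clathrin adaptor, fell by 0.73, the smallest fall called, with 213 to 251 CPM in pRNAi and 396 and 377 CPM in untreated embryos.

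Myotubularin-related protein 14 (g15186), a phosphoinositide phosphatase, was the most abundant of the lower gene models: 1440, 1298, 1430 and 1708 CPM in pRNAi and 2386 and 2544 CPM in untreated libraries, a fall of 0.75 (SE 0.12, adjusted p = 0.0066). The nuclear pore membrane glycoprotein 210 (g19167) fell by 1.72 (SE 0.22, adjusted p = 0.00129), with 3.53 and 3.5 CPM in pRNAi against 16.2 CPM untreated in female 1, and 18 and 17.1 CPM in pRNAi against 44.5 CPM untreated in female 2. HEAT repeat-containing protein 6-like (g2731) was even within each group, with 24.2, 27, 23.2 and 26.3 CPM in pRNAi and 66.7 and 62 CPM in untreated libraries (log2 change -1.35, SE 0.16, adjusted p = 0.00128). Retinal dehydrogenase 1-like (g2991), an aldehyde dehydrogenase of the family that makes retinoic acid in vertebrates, fell by 1.79, with 3.88 to 12.9 CPM in pRNAi and 19.4 and 32.4 CPM in untreated embryos.

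A potassium channel and a pair of transporters were also among the lower gene models. Their lists had 1 lower of 81 tested ion channels (1.23%) and 2 lower of 176 tested solute carriers and ABC transporters (1.14%), against 0.234% of all tested, with 0 higher in both and medians of -0.08 and -0.06. The potassium channel subfamily K member 1 (g20472) fell by 3.06 (SE 0.37, adjusted p = 0.00128): 2.72 and 2.18 CPM in pRNAi against 20.8 CPM untreated in female 1, and 0 and 0.416 CPM in pRNAi against 1.97 CPM untreated in female 2. In female 2 these levels stood for 0 and 4 reads against 11. The organic anion transporter 4A1-like (g15882) fell by 1.72, with 9.37 and 11.9 CPM in pRNAi against 36.4 CPM untreated in female 1, while female 2 had 3 and 7 reads in pRNAi against 10 untreated. Carcinine transporter-like (g24344) fell by 1.81, with 1.14 to 6.11 CPM in pRNAi and 16.9 and 4.65 CPM in untreated embryos. For all 3 genes female 1 had the higher untreated level.

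The other lower gene models were FAM43A-like (g27619, log2 change -2.57), MRVI1-like (g6077, -1.62), uridine phosphorylase 2-like (g20553, -1.58), an ankyrin repeat protein described as a phosphatase 6 subunit (g15280, -1.33) and 5 without a description, which were g13015 (-2.27), g15746 (-2.12), g13020 (-2.04), g2826 (-1.66) and g16769 (-1.03). Of these, g2826 matched fly tenascin major, and g16769 matched fly roadkill, a substrate adaptor that brings Ci to the ubiquitin machinery in the fly. Such best matches name a protein family and not an ortholog. Levels of g16769 were 13.9 and 12.8 CPM in pRNAi against 29 CPM untreated in female 1, and 31.6 and 31.7 CPM in pRNAi against 61.1 CPM untreated in female 2.

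Of the 14 higher gene models, 6 had no description. The undescribed g25100 (scaffold 85, 1097627 to 1102199, minus strand) rose most, by 1.77 (SE 0.25, adjusted p = 0.00261), with 73.9 and 52.3 CPM in pRNAi egg sacs of female 1 and 77.7 and 45.9 CPM in those of female 2, against 15.7 and 21.1 CPM in untreated libraries. In both females the earlier pRNAi egg sac had the higher level. The undescribed g18060 rose by 1.71 (SE 0.19, adjusted p = 0.0009), with 182, 131, 188 and 142 CPM in pRNAi and 52.1 and 46.1 CPM in untreated embryos. The others were g4822 (1.73), g6235 (1.70), g7867 (1.47) and g22987 (1.43).

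Actin genes were among the higher gene models. Actin, clone 403 (g10783) rose by 1.17 (SE 0.19, adjusted p = 0.00662), with 54.1 to 65.2 CPM in pRNAi and 22.3 and 31.3 CPM in untreated libraries. The undescribed g22987, whose best fly match was also Actin-5C, had 18.1 to 31.1 CPM in pRNAi and 8.89 and 8.76 CPM in untreated libraries. Actins are close copies of each other, and a second gene model shares the identifier of g10783, so reads may be divided among them. Unconventional myosin-XV (g12030), an actin-based motor, rose by 1.07, with 29.6 to 50.6 CPM in pRNAi and 14.6 and 23.2 CPM in untreated embryos. Activated CDC42 kinase 1 (g7138), a tyrosine kinase bound by the actin regulator Cdc42, rose by 0.78, with 222 to 250 CPM in pRNAi and 136 and 140 CPM in untreated embryos. Of all 137 tested genes of the actin cytoskeleton and myosin list, 2 were higher and 0 lower. Over all tested gene models 0.106% were higher. The median log2 change of the list was 0.08 against 0.02 over all tested. In gfp females 4 of the list were called higher and 1 lower, where 0.495% and 0.77% of all tested were. Myosin-XV and activated CDC42 kinase 1 were called higher there too, by 0.92 and 0.80, while actin, clone 403 had 0.02 and g22987 had 0.05.

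Extradenticle-like (g13538), a homeobox cofactor of Hox proteins, rose by 1.32 (SE 0.22, adjusted p = 0.00674), with 27.3, 23.7, 41.6 and 29 CPM in pRNAi and 10.8 and 13.2 CPM in untreated libraries. The identifier is shared by 2 other gene models. The glyoxylate reductase/hydroxypyruvate reductase gene (g16854), an enzyme that detoxifies glyoxylate, rose by 1.17 (SE 0.14, adjusted p = 0.00128). It had 276 and 294 CPM in pRNAi against 125 CPM untreated in female 1, and 178 and 150 CPM in pRNAi against 74.4 CPM untreated in female 2. The most abundant of the higher gene models was VAT-1 homolog-like (g15488), with 1285 to 1628 CPM in pRNAi and 928 and 555 CPM in untreated embryos, a rise of 1.02. Next was 14-3-3 protein zeta (g4653), a phosphoserine-binding adaptor, with 688 to 965 CPM in pRNAi and 617 and 385 CPM in untreated embryos, a rise of 0.79. The WD repeat and SOCS box-containing protein 1-like gene (g9018) rose by 1.28, with 65.3 to 103 CPM in pRNAi and 28.6 and 38.3 CPM in untreated embryos.

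The remaining parts of the Hedgehog pathway were not called. Of 19 tested pathway gene models, 0 were higher and 1, Pt-hh itself, was lower (5.26%, against 0.234% of all tested). Their median log2 change was -0.19. At an unadjusted p under 0.05, 3 were higher and 2 lower, where 6.94% of all tested gene models were higher and 8.2% lower. The receptor gene Pt-ptc (g14374) was at 105 and 147 CPM in pRNAi egg sacs of female 1 and 131 and 132 CPM in those of female 2, against 193 and 117 CPM in the untreated ones. These groups overlapped, and the log2 change was -0.24 (SE 0.18, adjusted p = 0.566). Pt-smo (g8490), the signal transducer, had a change of 0.32 (SE 0.13, adjusted p = 0.261) with 230 to 266 CPM in pRNAi and 222 and 187 CPM in untreated embryos. Pt-ci (g13321), the transcription factor, had a change of -0.03 (SE 0.12, adjusted p = 0.944) with 512 to 610 CPM in pRNAi and 606 and 577 CPM in untreated embryos. Pt-gas1 (g9575), whose vertebrate counterpart is a Hedgehog co-receptor, had -1.05 (SE 0.42, adjusted p = 0.247) at 0.935 to 2.58 CPM in pRNAi and 3.9 and 2.86 CPM in untreated embryos. The genes for suppressor of fused (g4889), the negative regulator of Gli factors, and dispatched (g10365), which releases the ligand from cells, had changes of 0.08 (SE 0.15) and -0.27 (SE 0.17).

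Genes listed as responding at late stage 5, most of them named in the study's text, were also examined in these earlier embryos. B-H1 (g8250) and BCL11A (g26043) are not named in its main text, and Pt-ptc is named there as a Hedgehog target. The study chose its genes on later embryos of the same egg sacs, and the list was made with earlier results known. The direction of these genes is therefore not independent evidence. Of 16 tested, 0 were called (against 0.34% of all tested), and their median log2 change was -0.36 against 0.02 over all tested. At an unadjusted p under 0.05, 8 were lower and 0 higher, where 8.2% of all tested gene models were lower and 6.94% higher. In gfp females 0 of the 16 were called and their median was -0.11. IRX-6 had -0.88 in Pt-hh and -0.77 in gfp females (adjusted p = 0.0275 in gfp females), BCL11A (g26043) had -1.56 in Pt-hh and -1.36 in gfp females (adjusted p = 0.0153 in gfp females), Pt-gas1 had -1.05 in Pt-hh and -1.26 in gfp females (adjusted p = 0.0177 in gfp females) and Pt-otd had -1.42 in Pt-hh and -0.99 in gfp females (adjusted p = 0.0325 in gfp females). These 4 were among the 8 lower ones, and BCL11A was chosen after its values were seen. In gfp females the other lower ones had 0.20 (frizzled-4), 0.19 (odd-skipped-related 2-like), 0.02 (Pt-lab-A) and -0.63 (noggin-2-like, adjusted p = 0.187). Their changes in Pt-hh females were -1.33, -1.23, -0.43 and -1.25 in that order. Of these, all but Pt-lab-A were named after their values were seen. At late stage 5 the list went both ways, with 3 of the 16 called higher and 8 called lower. BCL11A (1.16, adjusted p = 0.00017) and Pt-gas1 (0.61, adjusted p = 0.0211) were higher there, opposite to early stage 3. The rest of the 8 lower ones at early stage 3 had negative changes at both stages. Pt-otd (g9172), a homeobox gene of the head, had 1.36, 0.378, 1.08 and 1.04 CPM in pRNAi and 2.31 and 2.68 CPM in untreated libraries, with a change of -1.42 (SE 0.49, adjusted p = 0.176). At late stage 5 it fell by 6.03. Pt-opa (g12202), a zinc finger gene of the Zic family, had 130, 281, 194 and 192 CPM in pRNAi and 299 and 179 CPM in untreated libraries at early stage 3, where its change was -0.23 (SE 0.23, adjusted p = 0.681). At late stage 5 it fell by 4.18. Thus Pt-opa was already abundant at early stage 3, with overlapping groups, whereas Pt-otd was near 1 CPM.

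Pt-fgf8 (g5611), a growth factor gene, had a log2 change of -0.30 (SE 0.25, adjusted p = 0.624) at early stage 3 and fell by 3.94 at late stage 5. The Hox gene Pt-lab-A (g7954) had -0.43 (SE 0.16, adjusted p = 0.21) at early stage 3 and fell by 1.80 at late stage 5. For Pt-lab-A the females differed more than the treatments, with 255 and 230 CPM in pRNAi against 261 CPM untreated in female 1, and 57 and 51 CPM in pRNAi against 91.4 CPM untreated in female 2. The homeobox gene Pt-msx1 (g15189) had a change of 0.00 (SE 0.27, adjusted p = 0.999) at early stage 3 and rose by 1.07 at late stage 5. The lowest adjusted p of the 16 was that of the iroquois-class gene IRX-6 (g8295), with a change of -0.88 (SE 0.18, adjusted p = 0.0284). Pt-Delta (g25248), a Notch ligand, had -0.64 (SE 0.24, adjusted p = 0.211), and the homeobox gene Pt-noto1 (g15243) had 0.11 (SE 0.44, adjusted p = 0.937).

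**Figure D2:**
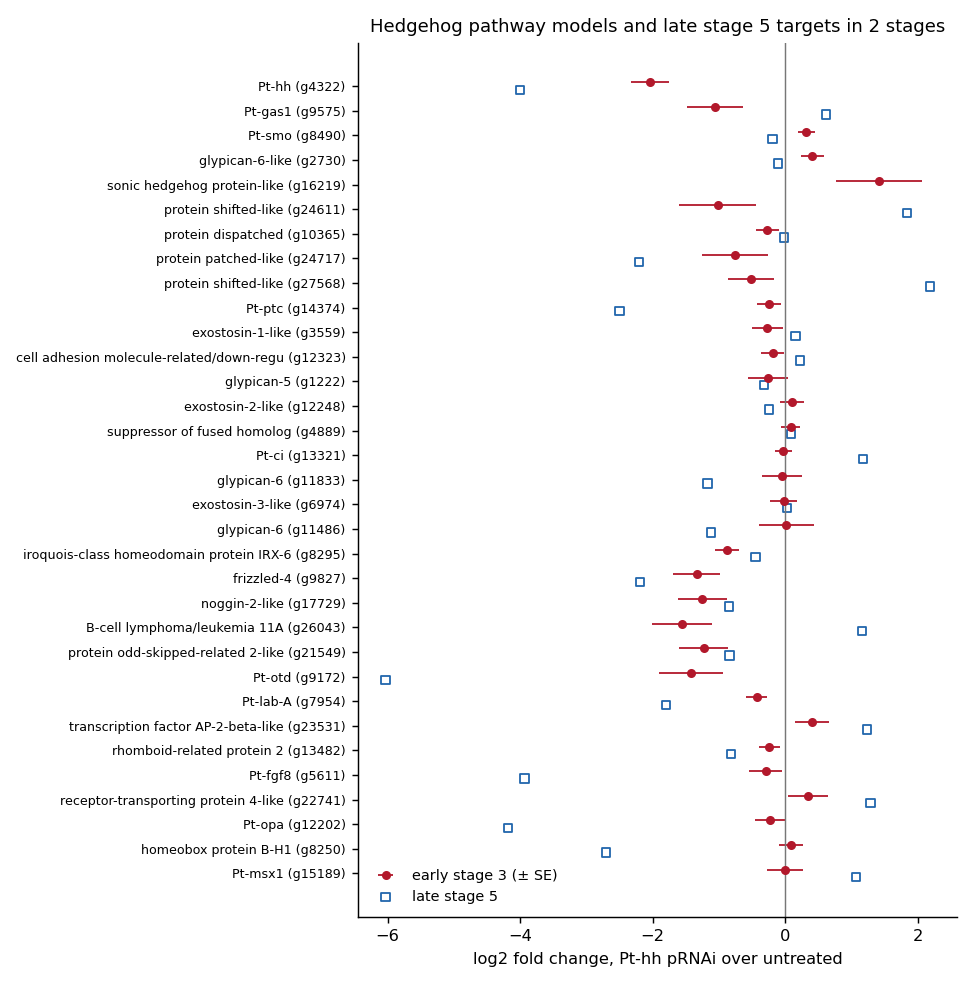
Log2 fold change of Pt-hh pRNAi over untreated embryos for the tested Hedgehog pathway gene models (upper rows) and the listed late stage 5 genes (lower rows), at early stage 3 (red, with SE) and at late stage 5 (blue squares). Pt-hh is the only one called at early stage 3, and Pt-otd, Pt-opa and Pt-fgf8 lie at -6.03, -4.18 and -3.94 at late stage 5 but at -1.42, -0.23 and -0.30 at early stage 3.

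Among 29 tested Wnt pathway gene models, 0 were higher and 2 lower (6.9%, against 0.234%), axin-2-like and frizzled-5-like, with a median change of 0.06. Other Wnt genes outside the call included secreted frizzled-related protein 5 (g4876), a binder of Wnt ligands, at 1.05 (SE 0.24, adjusted p = 0.049), groucho-1-like (g25606), a corepressor, at 1.12 (SE 0.27, adjusted p = 0.0537) and a second Wnt receptor, frizzled-4 (g9827), at -1.33 (SE 0.35, adjusted p = 0.0795). The beta-catenin gene, annotated as armadillo segment polarity protein-like (g10093), had -0.20 (SE 0.13). These 4 were chosen after their values were seen.

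Among 36 tested BMP and TGF-beta gene models, 1 was lower (2.78%, against 0.234% of all tested), repulsive guidance molecule A-like. None was higher, and the median was -0.01. BMP 4-like (g16926), whose fly match is the BMP ligand decapentaplegic, lay just outside the threshold. It had 11.4, 11.7, 14.2 and 10.6 CPM in pRNAi and 26.1 and 25.4 CPM in untreated libraries, without overlap, and a change of -1.11 (SE 0.19, adjusted p = 0.0113). Of 23 Notch pathway gene models 0 were called, with 1 higher and 6 lower at an unadjusted p under 0.05 and a median of -0.04. The lowest p there was that of HES-4-A-like (g4026), a Notch target in vertebrates, at -1.35 (SE 0.27, adjusted p = 0.0251). FGF and EGF signalling genes were not called either, in 36 tested, with 5 higher and 1 lower at an unadjusted p under 0.05. Of all tested gene models 6.94% were higher and 8.2% lower at that level. Only 0.34% of all tested were called, so 0 calls in lists of this size say little. BMP 4-like and HES-4-A-like were chosen after their values were seen.

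Homeobox genes had 1 higher (extradenticle-like) and 1 lower (prospero) of 71 tested, with a median of -0.31 against 0.02 over all tested and 18 lower against 4 higher at an unadjusted p under 0.05 (8.2% and 6.94% of all tested). In gfp females the median of the homeobox list was -0.16. Forkhead, Sox, T-box and GATA genes had 1 lower (SOX-14) of 32 tested and a median of -0.10. In the Krueppel-like, Snail, Sp and odd list 1 of 20 was lower (KLF5). The lower shares of these 3 lists were 1.41%, 3.125% and 5%, each from 1 gene model. Over all tested gene models 0.234% were called lower and 0.106% higher. Of 35 basic helix-loop-helix genes, 0 were called, with 2 higher and 6 lower at an unadjusted p under 0.05. Housekeeping groups had no called member: 76 cytosolic ribosomal protein genes had a median of 0.04, 53 translation factors 0.03, 62 genes of the respiratory chain 0.00, 48 proteasome genes 0.02 and 136 chaperone genes 0.12. At an unadjusted p under 0.05 the numbers higher and lower were 2 and 1 for ribosomal proteins, 2 and 5 for translation factors, 3 and 3 for the respiratory chain, 6 and 3 for the proteasome, and 13 and 6 for chaperones. Cell cycle and DNA replication genes, 127 tested, had a median of -0.06 with 11 higher and 18 lower at that level and 0 called.

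The response to gfp dsRNA was examined in the gfp females. There 179 of 14155 gene models (1.26%) were called, 70 higher (0.495%) and 109 lower (0.77%), with 6 pRNAi and 3 untreated libraries, so the counts of the 2 experiments rest on different numbers of libraries. Of the 45 gene models called in Pt-hh females, 40 had the same sign in gfp females, which 64.8% of the gene models not called in Pt-hh females also had. In gfp females 4 of the 14 higher were called higher: g6235, VAT-1 homolog-like, activated CDC42 kinase 1 and myosin-XV. Of the 31 lower, 10 were called lower: NUP210, the potassium channel, ZFP36L1-like, retinal dehydrogenase 1-like, FAM43A-like, AP-1 gamma-1, SEC14-like protein 3, prospero, g13020 and HEAT repeat-containing protein 6-like. None was called the opposite way.

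For several of these the changes were alike in size. Activated CDC42 kinase 1 rose by 0.78 in Pt-hh females and by 0.80 in gfp females, and the AP-1 subunit fell by 0.73 in Pt-hh females and by 0.67 in gfp females. NUP210 fell by 1.72 in Pt-hh females and by 2.28 in gfp females, and it was also the only 1 of the 45 called in Pt-ptc females, with a fall of 1.78 (18 of 13384 gene models, 0.134%, were called there). In these females 41 of the 45 had the sign of the Pt-hh response, against 61.3% of the gene models not called. Across gene models the log2 changes of Pt-hh and gfp females correlated at 0.377 (12896 gene models) and those of Pt-hh and Pt-ptc females at 0.338 (12524 gene models). The experiments share no library, and each shares the order of egg sacs, with untreated ones first.

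The 2 gene models with the smallest adjusted p in each direction in gfp females were followed in Pt-hh females. MSX-2-like (g4533) had a log2 change of -3.33 (SE 0.60, adjusted p = 0.0131) in Pt-hh females and fell by 2.72 in gfp females. In Pt-hh females it was at 0.0946 to 0.616 CPM in pRNAi and 3.17 and 2.32 CPM in untreated libraries. NUP210 was the other lower one. The undescribed g6581 had a change of 0.73 (adjusted p = 0.0538) in Pt-hh females and rose by 1.91 in gfp females. The undescribed g14711 had 0.69 (adjusted p = 0.0902) in Pt-hh females and rose by 1.09 in gfp females.

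Whether a response differed between Pt-hh and gfp females was tested directly in the 15 libraries of the 5 females. The difference was called for 4 of 14480 gene models (0.0276%), and all 4 were among the 45. Axin-2-like had a log2 change of -1.47 in Pt-hh and 0.31 in gfp females, a difference of -1.77 (SE 0.19, adjusted p = 0.000126). VPS13D had -1.93 in Pt-hh and 0.17 in gfp females, a difference of -2.08 (SE 0.28, adjusted p = 0.0028). Pt-hh had -2.04 in Pt-hh and 0.25 in gfp females, a difference of -2.28 (SE 0.33, adjusted p = 0.00457). The undescribed g25100 had 1.77 in Pt-hh and -0.51 in gfp females, a difference of 2.29 (SE 0.34, adjusted p = 0.00475). The other 41 called gene models could not be told from the gfp response at this threshold, at which a p that misses does not show that the responses were alike. Nearest to it were g15746 with a difference of -1.96 (SE 0.40, adjusted p = 0.112), g18060 with 1.30 (SE 0.27, adjusted p = 0.121), g2826 with -1.71 (SE 0.38, adjusted p = 0.144) and glyoxylate reductase with 1.10 (SE 0.25, adjusted p = 0.144).

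With Pt-ptc females in place of gfp females, a choice made after seeing the data, the difference was called for 2 gene models, axin-2-like (-1.61, SE 0.20) and Pt-hh (-2.34, SE 0.30), both with an adjusted p of 0.00211. VPS13D then had an adjusted p of 0.0685 and g25100 of 0.0784. Leaving out any 1 of the 5 females left 1 call each time. It was axin-2-like without each gfp female and without Pt-hh female 1, and VPS13D without Pt-hh female 2, where axin-2-like had an adjusted p of 0.0255. The difference for Pt-hh kept between -2.17 and -2.51 with adjusted p between 0.019 and 0.11.

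**Figure D3:**
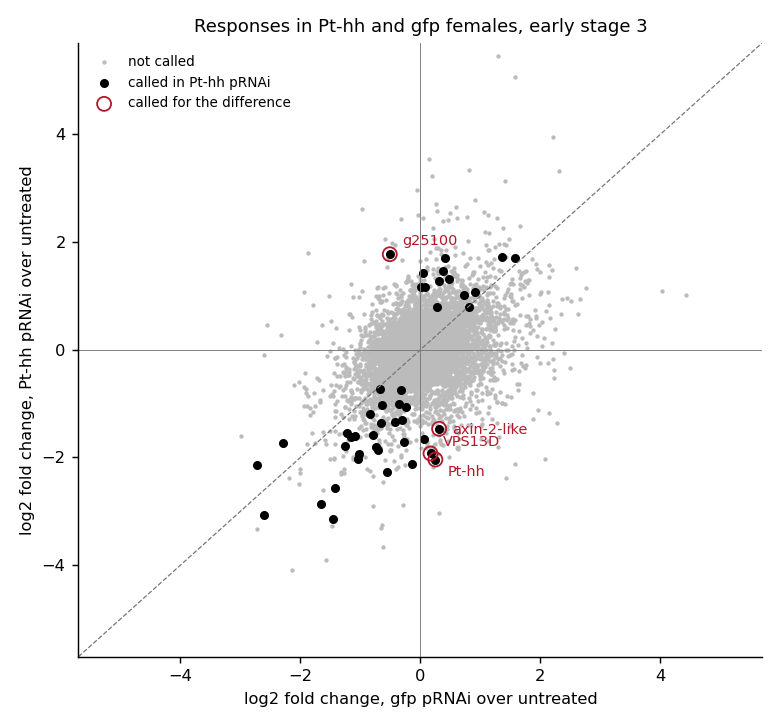
Log2 fold change of pRNAi over untreated embryos at early stage 3 in gfp females (x axis) and Pt-hh females (y axis), 1 point per gene model tested in both, with equality as the dashed line. Called gene models (black) lie mostly in the quadrants of equal sign, and the 4 called for the difference (red circles) lie in the quadrants of opposite sign.

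The levels of these genes were then set on 1 scale over all 24 early stage 3 libraries of the 3 experiments, as a description. Axin-2-like was at 96.5 to 150 CPM in the 4 Pt-hh pRNAi libraries and 329 and 336 CPM in the untreated libraries of the same females. It was at 360 to 655 CPM in the 12 gfp and Pt-ptc pRNAi libraries and 380 to 689 CPM in their 6 untreated libraries. So the Pt-hh pRNAi libraries stood below all 20 others, and the untreated ones of these females were below the other 18. VPS13D was at 39.4 to 67.7 CPM in Pt-hh pRNAi and 115 and 308 CPM in their untreated libraries, against 87.6 to 244 CPM in the other pRNAi and 108 to 192 CPM in the other untreated libraries. The untreated egg sac of Pt-hh female 1, at 308 CPM, was the highest of the 24.

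Of the 45, 6 had all 4 Pt-hh pRNAi libraries outside the range of the 18 libraries of other females, and all 6 were below it: Pt-hh, axin-2-like, VPS13D, HEAT repeat-containing protein 6-like, SAFB-like and ZFP36L1-like. How many of all tested gene models did so was not computed, so the 6 are a description. Pt-hh was at 1.52 to 6.91 CPM in Pt-hh pRNAi, against 15.4 to 47.6 CPM in those 18 libraries. HEAT repeat-containing protein 6-like was at 25.8 to 30.3 CPM in Pt-hh pRNAi and at 69.8 and 74.5 CPM in the untreated libraries of the same females, against 48 to 81.4 CPM in the other pRNAi and 65.4 to 119 CPM in the other untreated libraries. SAFB-like was at 201 to 404 CPM in Pt-hh pRNAi and 584 and 763 CPM in their untreated libraries, against 457 to 820 CPM in the other pRNAi and 482 to 880 CPM in the other untreated libraries.

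For other genes it was the untreated Pt-hh libraries that stood apart. The level of g25100 was 51.7 to 86.4 CPM in Pt-hh pRNAi and 17.5 and 23.7 CPM in the untreated libraries of those females, against 28.9 to 62.1 CPM in the other pRNAi and 30.6 to 69.9 CPM in the other untreated libraries. Its rise was thus measured against 2 untreated libraries that lay below all 18 libraries of other females. Glyoxylate reductase was at 169 to 330 CPM in Pt-hh pRNAi and 83.7 and 139 CPM in their untreated libraries, against 228 to 419 CPM in the other pRNAi and 235 to 374 CPM in the other untreated libraries. The same held for 14-3-3 protein zeta, with 774 to 1070 CPM in Pt-hh pRNAi and 433 and 689 CPM in their untreated libraries, against 816 to 1189 CPM in the other pRNAi and 775 to 962 CPM in the other untreated libraries. For the AP-1 subunit the untreated Pt-hh libraries, at 424 and 442 CPM, lay above all 18 others, and Pt-hh pRNAi was at 239 to 283 CPM. The other pRNAi libraries were at 196 to 284 CPM and the other untreated ones at 244 to 404 CPM. Of the 45, 5 had both untreated Pt-hh libraries outside the range of the 18 others, axin-2-like among them. In 22 of the 45 all 4 Pt-hh pRNAi libraries were inside it. The share of all tested gene models inside or outside that range was not computed.

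**Figure D4:**
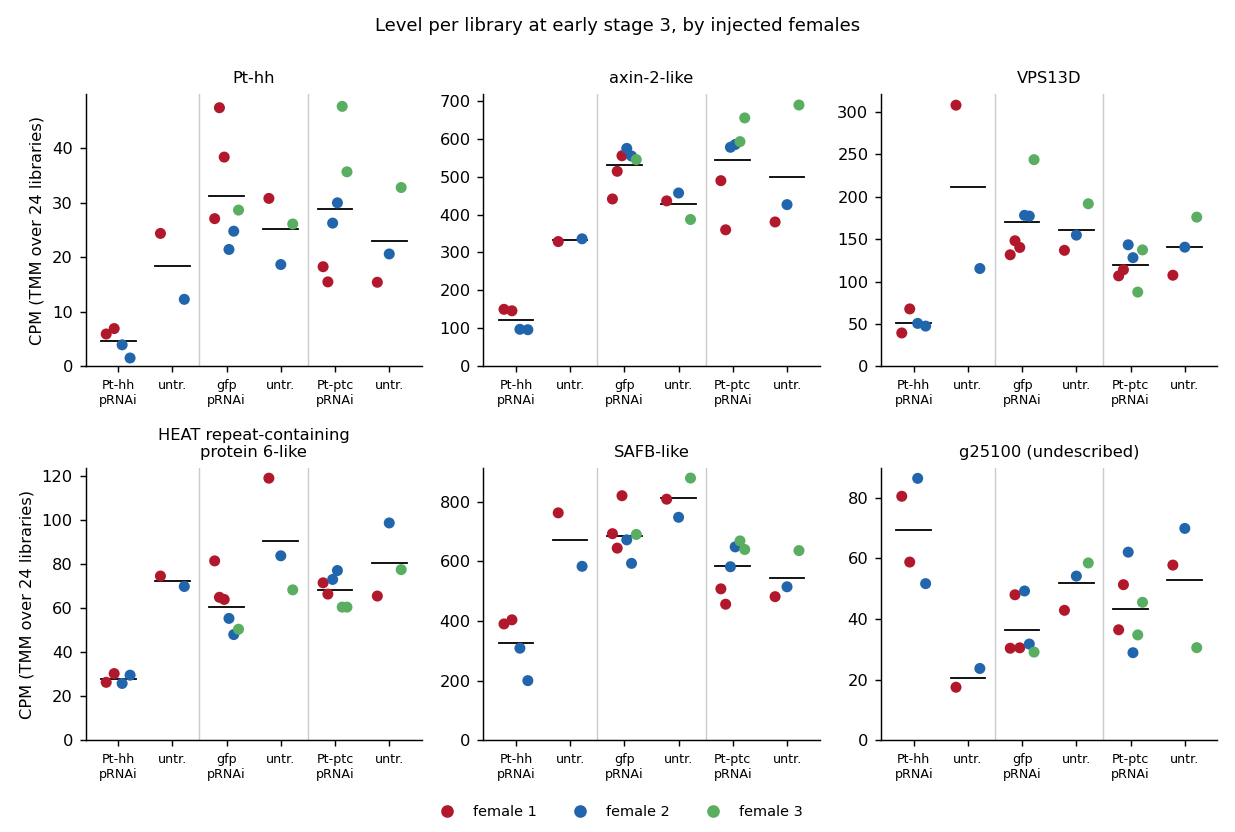
Level (CPM, scaled over 24 libraries) of 6 gene models in each early stage 3 library, by the dsRNA injected into the female, pRNAi left of untreated, with colours for females 1 to 3 of each experiment and a line at the group mean. Pt-hh, axin-2-like, VPS13D, HEAT repeat-containing protein 6-like and SAFB-like are lowest in the Pt-hh pRNAi libraries, while g25100 is lowest in their untreated libraries.

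Later embryos of the same egg sacs, at late stage 5, gave 435 called gene models of 12240 (3.55%), 287 higher (2.34%) and 148 lower (1.21%). Of the 45 called at early stage 3, 37 were tested there and 18 of these had the same sign, against 46.5% of the gene models not called. Pt-hh and frizzled-5-like were called in the same direction, and these 2 were chosen after their values were seen. Frizzled-5-like fell by 1.31 at early stage 3 and by 1.43 at late stage 5. Axin-2-like, by contrast, had -0.10 (adjusted p = 0.754) at late stage 5, and its response differed between the stages by 1.38 (SE 0.21, adjusted p = 0.000553). VPS13D had 0.55 at late stage 5, with a difference between the stages of 2.49 (SE 0.32, adjusted p = 8.65e-05). The fit of these differences had a term for each female at each stage but none for the egg sac. Libraries of the same egg sac were therefore treated as independent, which the SE and adjusted p do not take into account.

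Of the 37 tested at both stages, 4 (10.8%) were called the opposite way at late stage 5 and 2 (5.41%) the same way, against 1.55% and 1.87% of the gene models not called at early stage 3. Extradenticle-like rose by 1.32 at early stage 3 and fell by 1.42 at late stage 5. FAM43A-like fell by 2.57 at early stage 3 and rose by 2.18 at late stage 5. Myotubularin-related protein 14 fell by 0.75 and then rose by 1.00, and the undescribed g15746 fell by 2.12 and then rose by 1.56. The difference between the stages (a treatment by stage interaction) was called for all 4. Over the whole transcriptome it was called for 193 of 14105 gene models (1.37%). The interaction contains the early stage 3 change by which the 45 were called, so its values among them are a description. The 4 were picked by opposite calls at both stages, so their interaction calls were largely fixed by that choice.

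Stage-dependent genes were identified in the 12 untreated libraries of the gfp and Pt-ptc females, in which 3366 gene models (23.3%) were at least 2-fold higher at late stage 5 and 3719 (25.7%) at least 2-fold higher at early stage 3. In Pt-hh pRNAi embryos of early stage 3, the late stage 5 class had 4 higher and 6 lower calls of 2819 tested and a median log2 change of 0.11. The early stage 3 class had 7 higher and 15 lower calls of 3453 tested and a median of -0.08. Gene models in neither class had 3 higher and 10 lower of 6582 and a median of 0.03. Over all 13221 tested gene models 14 (0.106%) were called higher and 31 (0.234%) lower. By female, the medians in female 1 were 0.00 for the late and 0.02 for the early class, and in female 2 they were 0.21 and -0.15. The part of this shift in the calls was not tested.

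**Figure D5:**
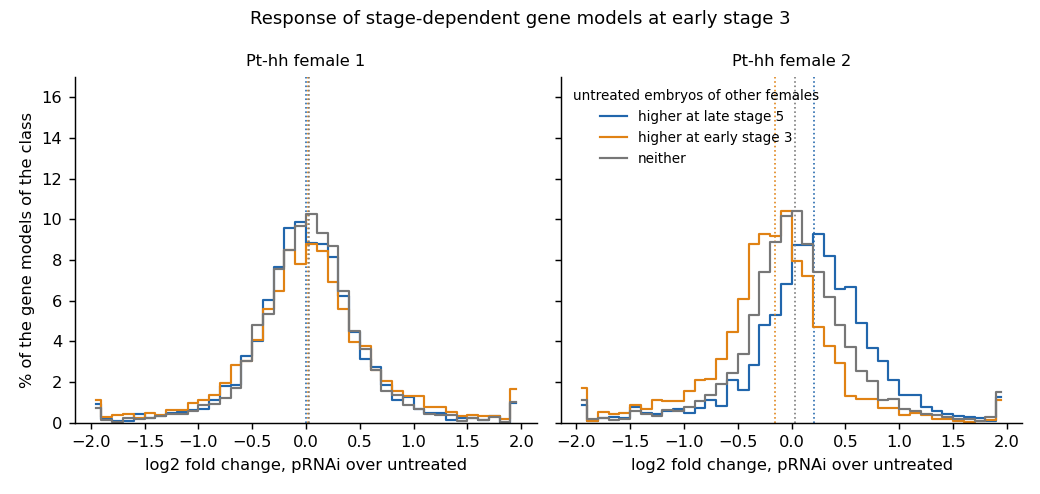
Distribution of the log2 fold change of Pt-hh pRNAi over untreated embryos at early stage 3 in female 1 (left) and female 2 (right), in % of the gene models of each stage class per 0.1 interval, with values beyond 2 in the end intervals and dotted lines at the medians. In female 1 the classes lie on top of each other, and in female 2 the late stage 5 class lies to the right (median 0.21) and the early stage 3 class to the left (median -0.15).

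The 2 females and the 2 egg sacs of each female were also compared. The response to Pt-hh dsRNA differed between the females for 5 of 13221 gene models (0.0378%), none of them among the 45. These were argonaute-4-like (g12797), with log2 changes of -1.40 in female 1 and 0.72 in female 2, cytochrome c oxidase subunit 3-like (g20563, 0.93 and -0.91 in that order), a lipoprotein receptor-related protein 2-like gene (g19982, 0.90 and -2.03) and the undescribed g25922 (2.20 and -0.57) and g9751 (3.48 and 0.38). The second pRNAi egg sac differed from the first for 1 gene model (0.00756%), the undescribed g20540, which fell by 4.44 on the log2 scale in the second egg sac. These 6 were chosen after their values were seen. For 15 of the 45 (33.3%) the level itself differed between the females, against 9.19% of all tested gene models.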

How the data were processed

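RNA-seq was performed by the authors on poly(A) RNA of 50 to 120 pooled embryos per library, with a strand-specific kit. Reads were trimmed in CLC Genomics Workbench, aligned with BLAT against Ptep_1.0, screened by filterPSL.pl for coverage, identity and uniqueness, and counted by strand on aug3 gene models with htseq-count (HTSeq 0.5.4p5 per the labels). The deposited counts are raw whole numbers for 27990 gene models, of which 18859 carry an identifier. Descriptions were those deposited with the counts. Of 17167 different identifiers, 14158 were also present in a RefSeq table of another assembly, from which no names were taken. The RPKM values deposited by the authors are counts per length and library total, and they were used only to compare levels between genes. The deposited tables of the authors' own comparisons hold fold changes and p-values, which were not used, and best fly and human protein matches, used as names at an E value up to 1e-10. Every column of the counts belonged to a sample of the series.

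Tests were run in R 4.3.3 with edgeR 4.0.16, after removal of gene models under 1 CPM in every library compared, by TMM normalization, the quasi-likelihood F test, female as a block, Benjamini-Hochberg adjustment and a threshold of 0.01. Standard errors were derived from the F statistic. The female block follows the design, since same-numbered libraries are egg sacs of the same animal. As a check, deviations of pRNAi and untreated libraries of a female from their group means correlated at 0.667 in Pt-hh females and 0.652 to 0.743 in gfp females. Differences between experiments, stages, females and egg sacs were tested as interaction or single terms in the same framework, and DESeq2 1.42.0 was an alternative. Levels on 1 scale used TMM over 24 libraries. The tests were also tried on simulated data. Precision rests on 5961730 to 9738213 counts per library and on 2 females.

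The gene lists (36, by words in descriptions) and the members were chosen with earlier results of these data known. Genes were named by a rule: 12 pathway and patterning genes, the 15 called gene models with the smallest adjusted p in each direction, up to 3 called per list, up to 5 per direction called for the difference from gfp, and the 2 strongest in each direction in gfp females. The other called gene models and those just outside the threshold were named after their values were seen. Sequences were not analysed here.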

Additional observations from a re-analysis of the deposited data

Results flagged for a closer look

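Responses that differed between groups were those of the 4 gene models called for the difference between Pt-hh and gfp females and the 4 called in opposite directions at the 2 stages. Between Pt-hh and gfp females the log2 responses differed by -1.77 for axin-2-like, -2.08 for VPS13D, -2.28 for Pt-hh and 2.29 for the undescribed g25100. For g25100 the untreated Pt-hh libraries, at 17.5 and 23.7 CPM, lay below all 18 libraries of gfp and Pt-ptc females, and their part in the difference was not tested.

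Between late stage 5 and early stage 3 the log2 responses to Pt-hh pRNAi differed by -2.71 for extradenticle-like, 1.77 for myotubularin-related protein 14, 3.71 for the undescribed g15746 and 4.75 for FAM43A-like. These genes were picked by their opposite calls at both stages, so the differences are a description. The untreated egg sac of female 1 had the higher early stage 3 level of g15746 (35.3 CPM, against 11.3 CPM in female 2) and of FAM43A-like (8.64 CPM, against 4.29 CPM in female 2).

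A library far from the other Pt-hh pRNAi libraries was seen for 2 of 52 sets of values examined, where chance gives about 1 in 20. The sets were those of 50 genes and of 2 library measures, the total count and the share of the 7 abundant undescribed gene models. Pt-ci was at 512 CPM in the day 18 egg sac of female 2 and at 594 to 610 CPM in the other pRNAi egg sacs. Pt-Delta was at 32.9 CPM in the day 20 egg sac of female 1 and at 16 to 18.8 CPM in the others.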

How the results depend on the processing

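For Pt-hh pRNAi, 45 gene models were called. The count was 216 with edgeR's likelihood ratio test, 112 with DESeq2, 292 without the low-count filter, 25 with filterByExpr, 300 with the second pRNAi egg sac of each female alone and 156 at an adjusted p under 0.05, and it was between 10 and 333 with a library or a female left out. For gfp pRNAi (179 called) the count was 706 with the likelihood ratio test, 493 with DESeq2, 521 without the filter and 892 at 0.05, and it was between 29 and 87 with a female left out. For the difference (4 called) it was 22 with the likelihood ratio test, 16 with DESeq2, 65 without the filter, 1 with any female left out, and 2 with Pt-ptc females in place of gfp females, an alternative chosen after seeing the data. Without the replicate block 0 gene models were called in all 3 comparisons, with 921 (Pt-hh), 1774 (gfp) and 455 (difference) at an unadjusted p under 0.05, and the log2 change of Pt-hh was -1.99 (adjusted p = 0.555). With a library or female left out that change was between -2.26 and -1.82. All 45 stayed called with the likelihood ratio test, DESeq2, no filter and the second egg sacs, 31 with the first egg sacs and 5 without the untreated egg sac of female 1. Over 18 settings none of the 648 values of the 36 called named genes changed sign. Gene models near 1 CPM had few reads in either group.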

Other observations

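Among the called gene models, 15 (33.3%) differed in level between the 2 Pt-hh females, against 9.19% of all tested gene models. One was the ankyrin repeat protein g15280, at 40.2 and 33.8 CPM in pRNAi and 97.8 CPM in untreated embryos of female 1, and at 0.616 and 0.727 CPM in pRNAi and 1.25 CPM in untreated embryos of female 2. The undescribed g13015, whose best fly match has no name beyond its number, had 13 and 10.6 CPM in pRNAi and 65 CPM in untreated embryos of female 1, and 1.39 and 0.416 CPM in pRNAi and 2.32 CPM in untreated embryos of female 2.

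Groups not described so far had few calls. Of 312 solute carrier and ABC transporter gene models 176 were tested and 2 were lower (1.14%), of 72 tested axon guidance genes 2 were lower (2.78%, plexin-B and repulsive guidance molecule A-like), and of 86 tested nuclear pore and transport genes 1 was lower (1.16%, NUP210), against 0.234% of all tested. In the nuclear pore list 6 were higher and 21 lower at an unadjusted p under 0.05, where 6.94% of all tested gene models were higher and 8.2% lower. Of 23 small RNA machinery genes 0 were called, with 1 higher and 4 lower at that level and a median log2 change of -0.23. Of 43 innate immunity genes 0 were called, with 3 higher and 5 lower at that level. ABC transporter G family member 9-like (g25573), just outside the threshold with 5.49 to 6.79 CPM in pRNAi and 12.9 and 17.9 CPM in untreated libraries (adjusted p = 0.0118), rose by 2.59 at late stage 5. Achaete-scute homolog 1a (g27206), a proneural factor in the fly, also lay just outside it, at 20.9 to 37.1 CPM in pRNAi and 64.9 and 51.3 CPM in untreated libraries (log2 change -0.96, adjusted p = 0.0118).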
